A study of Bos taurus with 12 samples.

Results

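The 15 transcripts described here had at least 200 TPM in every one of 12 bovine libraries, 6 from oocytes and 6 from cumulus cells, after the 10 transcripts with the largest estimated counts in cumulus L replicate 3 had been left out. They were 15 of the 38030 transcripts quantified. TPM is an estimated read count divided by the effective length of the transcript, which is the number of positions at which a fragment can start, and scaled to a sum of 1000000 in each library. The members were therefore selected on their measured TPM, and their abundance in both cell types is what the selection fixed. With the 10 left-out transcripts kept in, 25 transcripts passed. At the same threshold 72 transcripts passed in all 6 oocyte libraries and 82 in all 6 cumulus libraries.

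The study asked how losing body condition in early lactation relates to the transcriptomes of the oocyte and of the cumulus cells around it. Multiparous lactating dairy cows of the L group lost body condition score (BCS) between calving and 27 to 33 days in milk, whereas cows of the M/G group maintained or gained BCS, and all cows shared the same farm, the same ration and a timed fertility program. The cells were collected weeks after that scoring interval, at the end of the program. Each oocyte library was made from 1 oocyte at metaphase II, and each cumulus library from cumulus cells collected at ovum pickup, with 3 libraries per group and cell type from 9 cows, 3 of which gave a library of each cell type. Group names follow the sample titles, whereas the condition field of the same records names the other group in each of the 12. The cow numbers listed by group in the study, and its read totals for the oocyte groups, go with the titles.

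A metaphase II oocyte no longer transcribes its nuclear genes and relies on messenger RNA stored during growth, while cumulus cells are transcriptionally active somatic cells that surround the oocyte. Transcripts that are abundant in both commonly include those of the mitochondrial chromosome, which encodes subunits of the respiratory chain and of the ATP synthase, and those of the translation machinery. The deposited tables name transcripts by identifier only, and the RefSeq table at hand held 0 of these identifiers. The members are therefore called by their annotated length in nucleotides, which differs among all 15, and the labelled cell types could not be checked against marker genes.

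Length gave a partial view of what the members are. The 13 protein-coding genes of the bovine mitochondrial chromosome have 13 distinct lengths in the RefSeq gene table, and 3 members had one of these lengths. ENSBTAT00000060553.1, of 201 nucleotides, has the length of ATP8, a small subunit of the mitochondrial ATP synthase. ENSBTAT00000060543.1, of 297 nucleotides, has the length of ND4L, and ENSBTAT00000060547.1, of 346 nucleotides, that of ND3, both of which encode membrane subunits of respiratory complex I. All 10 left-out transcripts had the lengths of the other 10 mitochondrial genes, and all 10 also had at least 200 TPM in every library. These are equal lengths and not identities, because 12 transcripts in the tables have 201 nucleotides, 23 have 297 and 2 have 346, and no sequence was compared. In mammals ATP8 overlaps ATP6, and ND4L overlaps ND4, on shared messenger RNA, and the reads of overlapping transcripts are divided between them by estimation. The other 12 members, of 177 to 2785 nucleotides, had no such length, and their functions are not given here.

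Totals of estimated counts ranged from 8073221 to 31810285 in oocyte libraries and from 6397423 to 11879885 in cumulus libraries. In cumulus cells, fewer cells of a type and less RNA per cell cannot be told apart, as each library holds many cells. A pair of libraries stood apart from the rest and limited how many transcripts could be selected. Oocyte M/G replicate 1 had 162 transcripts at 200 TPM or more, against 647 to 770 in the other oocyte libraries, and cumulus L replicate 3 had 121, against 285 to 440 in the other cumulus libraries. Without oocyte M/G replicate 1 the number of members would be 23, without cumulus L replicate 3 it would be 34, and leaving out any other library gave 15 to 20. The member just inside the threshold was ENSBTAT00000042547.4, of 320 nucleotides, at 206 TPM in cumulus L replicate 3. The transcript just outside it was ENSBTAT00000028093.5, at 190.0 TPM in the same library. The lowest estimated count of any member was 31.5, for the transcript of 180 nucleotides in cumulus M/G replicate 3.

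**Figure D1:**
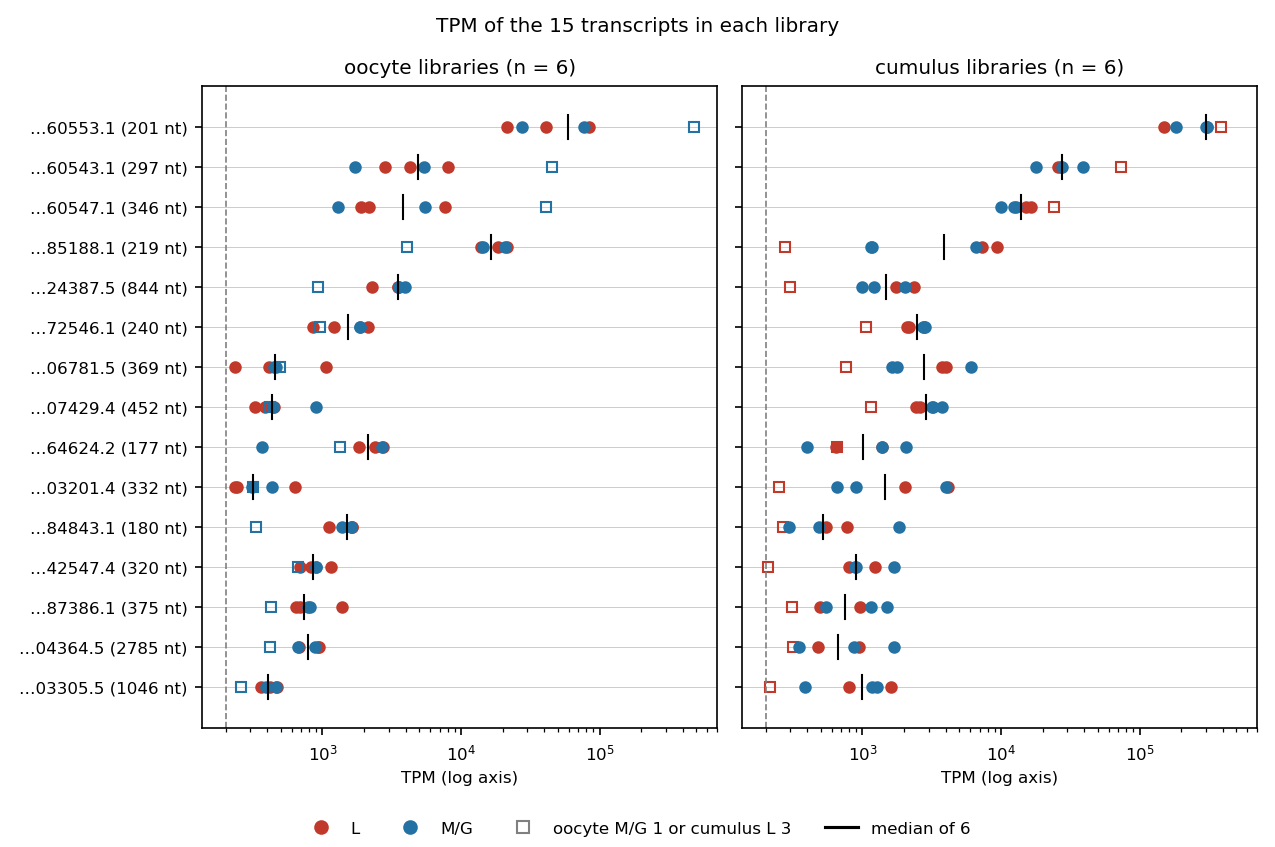
TPM of the 15 members in each of the 12 libraries, on a log10 axis, with oocytes on the left and cumulus cells on the right, L in red and M/G in blue, a bar at the median of 6 libraries and a dashed line at 200 TPM. Open squares mark oocyte M/G replicate 1 and cumulus L replicate 3. The transcript of 201 nucleotides lies above the others in every library, between 21510.4 and 477816 TPM, and cumulus L replicate 3 is the lowest cumulus library for 11 of the 12 transcripts without a mitochondrial gene length.

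The members held a larger part of TPM in most cumulus libraries than in most oocyte libraries, and the difference came from the 3 transcripts with mitochondrial gene lengths. In oocytes the 15 members held 5.57%, 12.8% and 8.17% of TPM in L replicates 1 to 3 and 57.5%, 11.5% and 6.55% in M/G replicates 1 to 3. In cumulus cells they held 37.0%, 22.5% and 49.3% in L replicates 1 to 3 and 36.4%, 36.9% and 24.6% in M/G replicates 1 to 3. Apart from oocyte M/G replicate 1, which lay above every cumulus library, the oocyte libraries were all below the cumulus libraries. The means were 17.0% ± 20.0 in oocytes and 34.5% ± 9.77 in cumulus cells (SD, n = 6 each).

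The 3 transcripts with mitochondrial gene lengths held 2.62% to 9.94% of TPM in the oocyte libraries other than M/G replicate 1, 56.4% in that library and 19.3% to 48.7% in cumulus libraries. The other 12 members held 2.64% to 3.47% in those oocyte libraries, 1.06% in oocyte M/G replicate 1 and 0.578% to 3.15% in cumulus libraries. The 12 members thus had their lowest part of TPM in the libraries that stood apart. The 10 left-out transcripts took 18.0% of TPM in oocyte M/G replicate 1 and 31.8% in cumulus L replicate 3, against 1.12% to 3.84% in the other oocyte libraries and 9.92% to 15.2% in the other cumulus libraries. When TPM was rescaled to leave out the 13 transcripts with mitochondrial gene lengths, the 12 members held 2.99% to 4.16% of the remainder in oocytes, with oocyte M/G replicate 1 then the highest, and 2.96% to 4.65% in cumulus cells, with cumulus L replicate 3 still the lowest.

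**Figure D2:**
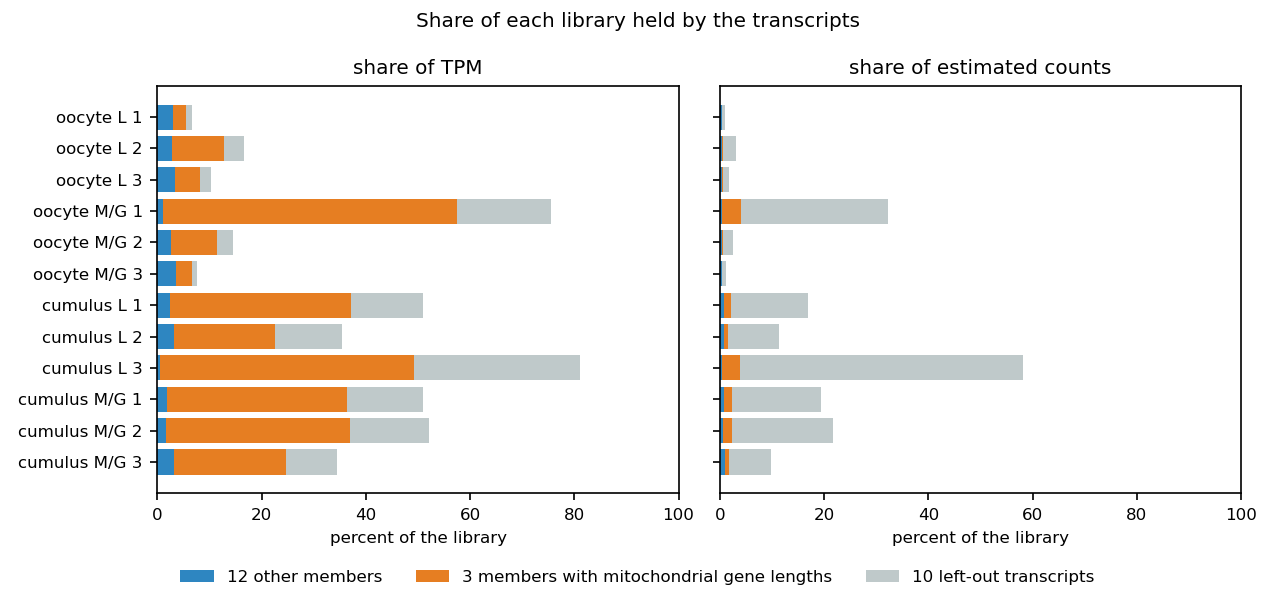
Percent of TPM and percent of estimated counts held by the members in each library, as stacked bars of the other 12 members, the 3 with mitochondrial gene lengths and, for comparison, the 10 left-out transcripts. The members reach 57.5% of TPM in oocyte M/G replicate 1 and 49.3% in cumulus L replicate 3, but no more than 4.05% of estimated counts in any library.

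As a part of the reads themselves the members were minor. They held 0.422% to 0.695% of the estimated counts in 5 oocyte libraries, 4.05% in oocyte M/G replicate 1 and 1.56% to 3.95% in cumulus libraries. Reads and TPM divided the 3 transcripts with mitochondrial gene lengths differently. The transcript of 201 nucleotides took 34.2% to 57.0% of their estimated counts and 78.1% to 90.3% of their TPM.

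The members were short. Their median length was 332 nucleotides, from 177 to 2785, against a median of 2013 over all 38030 transcripts, and 11 of 15 (73.3%) were under 400 nucleotides against 3.92% of all transcripts. With the same 10 transcripts left out, the median was 388.5 nucleotides for the 62 transcripts at 200 TPM in all oocyte libraries and 465 for the 72 in all cumulus libraries, the members included in both. The 10 left-out transcripts had 528 to 1821 nucleotides, and with them kept in the median of the 25 transcripts was 528. For most transcripts the effective length was the annotated length less 199, but the shortest members had effective lengths of 10.5 (177 nucleotides), 11.1 (180), 17.0 (201), 25.9 (219) and 42.0 (240). These 5 transcripts therefore gained more TPM for each read than longer ones did.

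To see how much of the selection rested on this step, TPM was recomputed on annotated length. The deposited value was on average 9.25 times the recomputed one for ENSBTAT00000064624.2, the shortest member with 177 nucleotides, and 0.598 times for ENSBTAT00000004364.5, the longest with 2785. On annotated length 9 of the 15 members still had 200 TPM in all libraries, and 6 did not. The transcript of 177 nucleotides reached 200 in 5 libraries and that of 180 in 1. In all 32 transcripts passed on annotated length, with a median of 1028 nucleotides. The 3 transcripts with mitochondrial gene lengths stayed above 200 in every library on either scale.

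**Figure D3:**
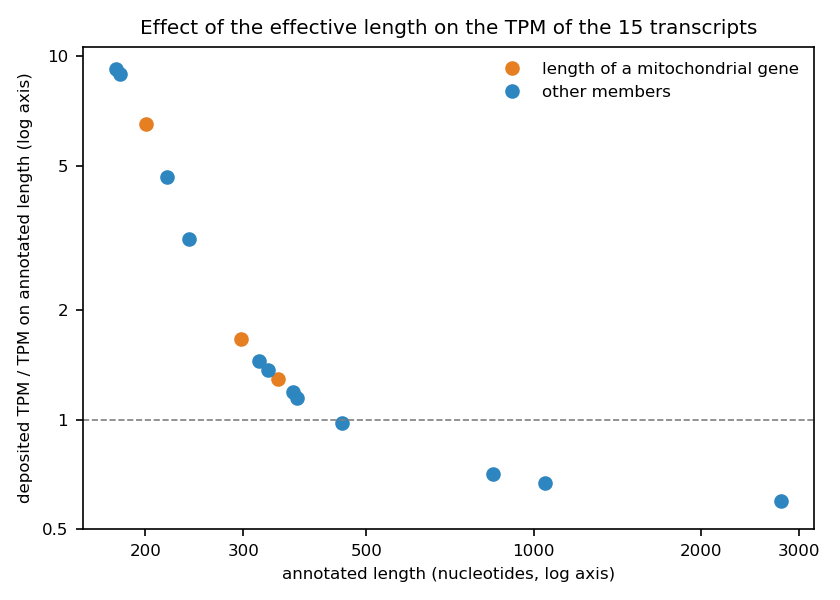
Deposited TPM divided by TPM recomputed on annotated length, averaged over the 12 libraries, against the annotated length of each member in nucleotides, both axes logarithmic, with the 3 members of mitochondrial gene length in orange. The ratio is highest for the shortest member, at 9.25, and lowest for the longest, at 0.598.

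Variation between libraries was described by the coefficient of variation (CV, SD divided by mean) of TPM over the 6 libraries of a cell type. The median CV of the members was 41.5% in oocytes, from 19.6% to 155%, and 57.1% in cumulus cells, from 29.6% to 90.4%. Over all transcripts tested the medians were 95.3% and 114%. Against transcripts with a mean of at least 200 TPM the members were close, at 51.1% over 577 transcripts in oocytes and 56.2% over 321 in cumulus cells. A transcript that fell under 200 TPM in any library could not be selected, so low variation is in part what the rule required, and no test was made.

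The most even member over all 12 libraries was ENSBTAT00000072546.1, of 240 nucleotides, with a CV of 38.1%. Its TPM was 857, 2119 and 1205 in oocyte L replicates 1 to 3, 966, 1853 and 1863 in oocyte M/G replicates, 2106, 2172 and 1065 in cumulus L replicates and 2842, 2738 and 2762 in cumulus M/G replicates. The values of both cell types overlapped, and the highest was 3.32 times the lowest. The least even member was ENSBTAT00000003201.4, of 332 nucleotides, with a CV of 122%. Its TPM ran from 235 to 630 in oocytes with a median of 314, and in cumulus cells it was 2016, 4111 and 249 in L replicates and 903, 656 and 4009.8 in M/G replicates. Its cumulus values spread over a 16.5-fold range within which both groups had a high and a low library.

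Rescaling without the 13 transcripts with mitochondrial gene lengths gave a different order of stability for the other 12 members. The oocyte CV was higher than on deposited TPM for 9 of the 12 and lower for 3, and their median went from 40.3% to 45.4%. In cumulus cells it was lower for all 12, with a median of 42.2% against 58.5%. On the rescaled values the transcripts of 844, 219 and 180 nucleotides were the most even in oocytes, with CVs of 14.5%, 16.8% and 17.6%, and these were the 3 that had become more even there. The transcript of 320 nucleotides went the other way, from 20.5% to 55.7%. The transcript of 219 nucleotides, for example, had 15918 to 23253 rescaled TPM in all 6 oocyte libraries, where its deposited TPM had run from 4075 to 21654 with oocyte M/G replicate 1 the lowest. The place of that library depended on the scale: of the 12 members, 7 had their lowest oocyte value in it on deposited TPM, whereas 9 had their highest there and 1 its lowest on rescaled TPM. Cumulus L replicate 3 had the lowest cumulus value for 11 of the 12 on deposited TPM and for 4 on rescaled TPM.

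**Figure D4:**
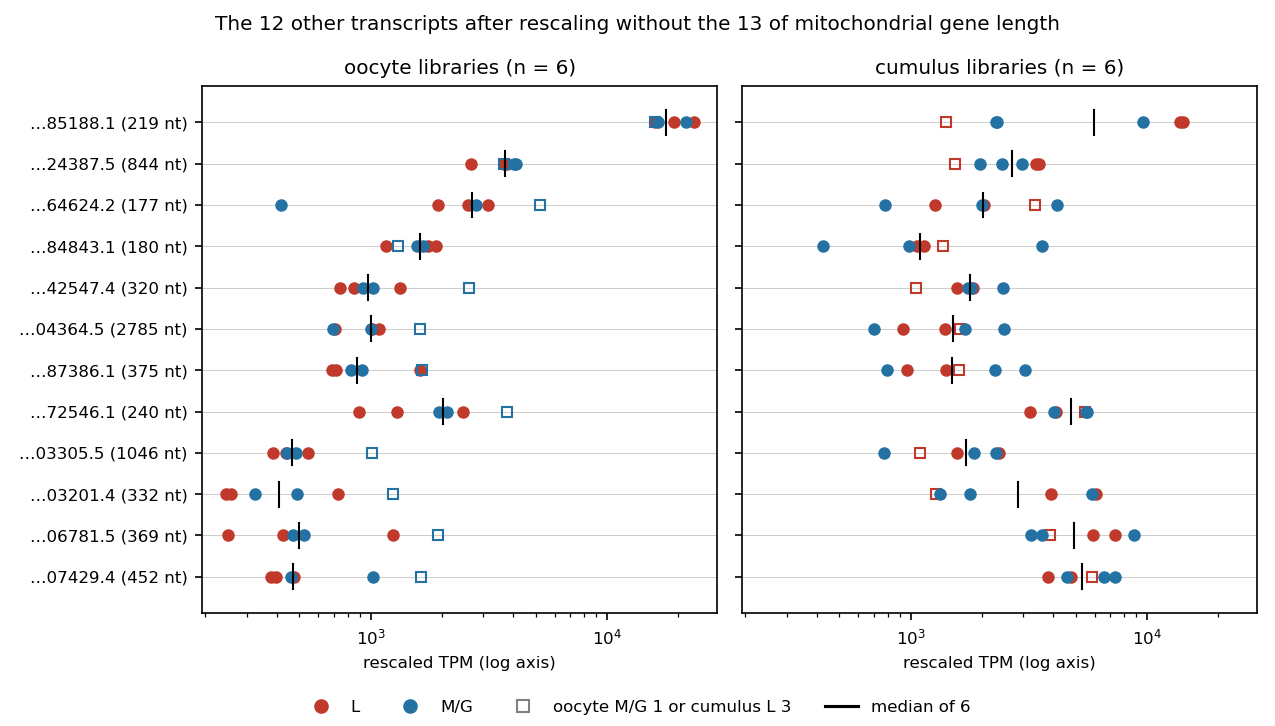
TPM of the 12 members without a mitochondrial gene length after rescaling to leave out the 13 transcripts with such lengths, by library, on a log10 axis, with L in red, M/G in blue, open squares for oocyte M/G replicate 1 and cumulus L replicate 3 and a bar at the median of 6. The transcript of 219 nucleotides lies between 15918 and 23253 in oocyte libraries and between 1418 and 14237 in cumulus libraries.

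Oocyte and cumulus libraries were compared next. The selection asked for 200 TPM in both cell types, which limits the ratios that members can show and can also favour a direction. Cumulus L replicate 3 alone kept out 19 transcripts and cumulus M/G replicate 3 alone 1. Oocyte M/G replicate 1 alone kept out 8, and oocyte L replicates 1 and 2 alone 5 and 2. The number and direction of calls among the members are therefore not independent of the selection. Oocyte and cumulus libraries were made with different kits, so kit and cell type cannot be told apart. The mean TPM was higher in oocytes for 4 members and higher in cumulus cells for 11. The ratio of oocyte to cumulus mean ran from 3.60 for ENSBTAT00000085188.1, of 219 nucleotides, to 0.173 for ENSBTAT00000006781.5, of 369 nucleotides.

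The transcript of 219 nucleotides had 18445, 13832 and 21654 TPM in oocyte L replicates and 4075, 14443 and 20627 in oocyte M/G replicates. In cumulus cells it had 7299, 9352 and 277 TPM in L replicates and 1170.2, 1146 and 6595 in M/G replicates. Only oocyte M/G replicate 1 fell within the cumulus range, and on rescaled TPM the cell types did not overlap, with an oocyte mean 2.57 times the cumulus mean. Across all transcripts, 7.89% did not overlap on rescaled TPM with oocytes higher and 2.97% with oocytes lower.

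The transcript of 369 nucleotides had 408, 1069 and 232 TPM in oocyte L replicates, 495, 461 and 449 in oocyte M/G replicates, 3766, 4013 and 763 in cumulus L replicates and 1637, 1788 and 6045 in cumulus M/G replicates. Cumulus values were above oocyte values except for cumulus L replicate 3, which lay below oocyte L replicate 2. ENSBTAT00000007429.4, of 452 nucleotides, had 383, 328 and 444 TPM in oocyte L replicates, 417, 900.4 and 441 in oocyte M/G replicates, 2438, 2585 and 1149 in cumulus L replicates and 3729, 3247 and 3151 in cumulus M/G replicates. It was the only member whose cell types did not overlap on deposited TPM, against 1.5% of 28107 transcripts that did not overlap with oocytes lower and 5.43% with oocytes higher. On rescaled TPM 3 of the 12 members without mitochondrial gene lengths, those of 452, 369 and 332 nucleotides, did not overlap with oocytes lower, at cumulus means 7.55, 6.79 and 6.16 times the oocyte means.

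In the test of oocyte against cumulus cells over all 28107 transcripts, edgeR called 4 of the 15 members at a Benjamini-Hochberg adjusted p under 0.05, all lower in oocytes. Over all transcripts 3.03% were called lower in oocytes and 6.6% higher. These shares include transcripts of low counts, and none was taken among transcripts of like abundance. They therefore do not show whether the calls are particular to the members. All 15 members had passed the filter of FPKM over 1 in at least 1 library. The median log2 fold change of all transcripts was -0.03 with TMM scaling, 0.20 with the size factors of DESeq2 and 0.15 with library totals, and the same 4 members were called lower under each. ENSBTAT00000007429.4 was lower by a log2 fold change of -3.41 (edgeR, adjusted p = 0.000283) and ENSBTAT00000006781.5 by -3.14 (edgeR, adjusted p = 0.0029). The standard errors of DESeq2 for these were 0.463 and 0.567 on the log2 scale, around its own estimates of -3.21 and -2.93. The other called members were the transcripts of 332 and 1046 nucleotides, at -2.97 and -1.99. Their mean TPM was 5.52 times and 2.31 times as high in cumulus cells as in oocytes, and the libraries overlapped for both on deposited TPM.

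The 3 transcripts with mitochondrial gene lengths were lower in oocytes by -1.62 to -2.75 on the log2 scale without passing the test (edgeR, adjusted p = 0.194 to 0.432). Their oocyte values were widely spread. The transcript of 201 nucleotides had 21510.4, 83669 and 41285 TPM in oocyte L replicates, 477816, 77623 and 27722 in oocyte M/G replicates, 305077, 151011 and 388752 in cumulus L replicates and 305762, 303582 and 184327 in cumulus M/G replicates. Without oocyte M/G replicate 1, calls rose over the whole table, to 5.11% lower and 9.36% higher in oocytes. There 8 members were called, all lower, and the 3 with mitochondrial gene lengths were among them at -3.53 to -4.69 (edgeR, adjusted p = 0.0017 to 0.0039). No other single library left out changed the number of members called from 4. In the L libraries alone edgeR called 3 members lower in oocytes, those of 452, 369 and 1046 nucleotides, where 0.889% of all transcripts were called lower and 3.5% higher. In the M/G libraries alone it called 0 members, and 0.08% of all transcripts were called lower and 0.38% higher. At an unadjusted p under 0.05 in that fit there were 2980 of 25008 transcripts, of which 4 were members. The log2 fold changes of the 4 members called from all libraries were then -1.81 to -3.02, against -2.10 to -3.75 in the L libraries. In the 3 cows with both libraries, with cow as a block, edgeR called 0 members, at -1.33 to -3.54 for the same 4. Of all transcripts 0.234% were called lower and 0.652% higher there. At an unadjusted p under 0.05 there were 1986 of 25613 transcripts, of which 3 were members.

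ENSBTAT00000085188.1 was higher in oocytes by 1.2 on the log2 scale, which edgeR did not call (adjusted p = 0.174) and DESeq2 did (1.50 with SE 0.622, adjusted p = 0.0455). DESeq2 called 6 members in all, 1 higher and 5 lower in oocytes, and over all transcripts it called 17.2% higher and 10.3% lower. It gave no adjusted p for the transcript of 346 nucleotides. Of the 3 cows with both libraries, the oocyte to cumulus ratio of ENSBTAT00000085188.1 on deposited TPM was 49.9 and 18.0 in the cows of oocyte L replicate 2 and M/G replicate 3. It was 0.618 in the cow of oocyte M/G replicate 1. On rescaled TPM the oocyte value was the higher in that cow too, at 15918 against 9612 in cumulus M/G replicate 3. For the transcript of 452 nucleotides the cumulus value was 3.50, 7.36 and 7.55 times the oocyte value in the same cows. On deposited TPM the other 3 called members were lower in cumulus cells in the cow of oocyte L replicate 2. Its cumulus library was L replicate 3, at 0.396 to 0.714 of the oocyte value. The transcript of 1046 nucleotides was also lower in cumulus cells in the cow of oocyte M/G replicate 3, at 0.826 of the oocyte value. On rescaled TPM these directions turned. In the cow of oocyte L replicate 2, ENSBTAT00000006781.5 had 3907 in cumulus cells against 1239 in the oocyte. ENSBTAT00000003201.4 had 1277 against 730 there, and the transcript of 1046 nucleotides 1096 against 541. In the cow of oocyte M/G replicate 3 the transcript of 1046 nucleotides had 773 in cumulus cells against 483 in the oocyte.

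Between L and M/G cows 0 of the 15 members were called in either cell type. In oocytes edgeR tested 23686 transcripts and called 0% at an adjusted p under 0.05, and in cumulus cells it tested 23699 and called 0%. At an unadjusted p under 0.05 there were 516 and 362 transcripts, of which 1 and 0 were members. DESeq2 called 310 (1.31%) and 189 (0.798%) transcripts and limma-voom 0 (0%) and 3 (0.0127%), none of them a member, although DESeq2 gave no adjusted p for the 3 transcripts with mitochondrial gene lengths in oocytes.

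In oocytes the L and M/G libraries overlapped in TPM for all 15 members, while 4.21% of all transcripts did not overlap with L higher and 1.37% with L lower. The member with the smallest p was ENSBTAT00000060553.1, whose log2 fold change of L against M/G was -3.53 (edgeR, adjusted p = 1). This value turned on oocyte M/G replicate 1, at 477816 TPM against 21510.4 to 83669 in the other oocyte libraries. Without it the log2 fold change was -0.06 (edgeR, adjusted p = 1). The transcripts of 297 and 346 nucleotides followed it, with log2 fold changes of -3.40 and -3.58 that became 0.54 and 0.27 without that library.

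The median log2 fold change of the members in oocytes was -0.56, with 2 above and 13 below 0, where the median of all transcripts was 0.11. With the size factors of DESeq2 in place of TMM, which put the median of all transcripts at -0.01, all 15 members were below 0. The balance turned with the scale, since on deposited TPM the L mean was the higher for 10 of 15 members and on rescaled TPM for 2 of 12. Without oocyte M/G replicate 1 it was 0.04, with 10 above and 5 below 0, so the sign of the median rested on 1 oocyte. The smallest p among members higher in L was that of ENSBTAT00000085188.1, with a log2 fold change of 0.14 (edgeR, adjusted p = 1). Its L libraries had 18445, 13832 and 21654 TPM and its M/G libraries 4075, 14443 and 20627, and the groups overlapped.

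In cumulus cells the smallest p among the members belonged to ENSBTAT00000060547.1, of 346 nucleotides. It had 15136, 16389 and 24299 TPM in L replicates and 12816, 10073 and 12408 in M/G replicates, and the groups did not overlap. Its log2 fold change was 1.39 (edgeR, adjusted p = 1) and fell to 0.09 without cumulus L replicate 3. Among members lower in L the smallest p was that of ENSBTAT00000087386.1, of 375 nucleotides, with a log2 fold change of -0.82 (edgeR, adjusted p = 1). It had 494, 953 and 312 TPM in L replicates and 1158, 1505 and 545 in M/G replicates, and these overlapped. The fold change was -0.37 without cumulus M/G replicate 2 and -1.18 without M/G replicate 3.

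The transcripts of 240 and 452 nucleotides were the other members without overlap in cumulus cells, both lower in L. This made 1 member higher and 2 lower, where 1.2% of all transcripts did not overlap with L higher and 2.03% with L lower. On rescaled TPM 0 of the 12 members without mitochondrial gene lengths kept the groups apart in either cell type. Over all transcripts on that scale, 3.02% were apart with L higher and 1.64% with L lower in cumulus cells, and 3.99% and 2.27% in oocytes. The median log2 fold change of the members was -0.16, with 5 above and 10 below 0, and that of all transcripts was 0.07. It was -0.50 without cumulus L replicate 3 and -0.05 without M/G replicate 3, and with the size factors of DESeq2 7 members were above and 8 below 0.

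**Figure D5:**
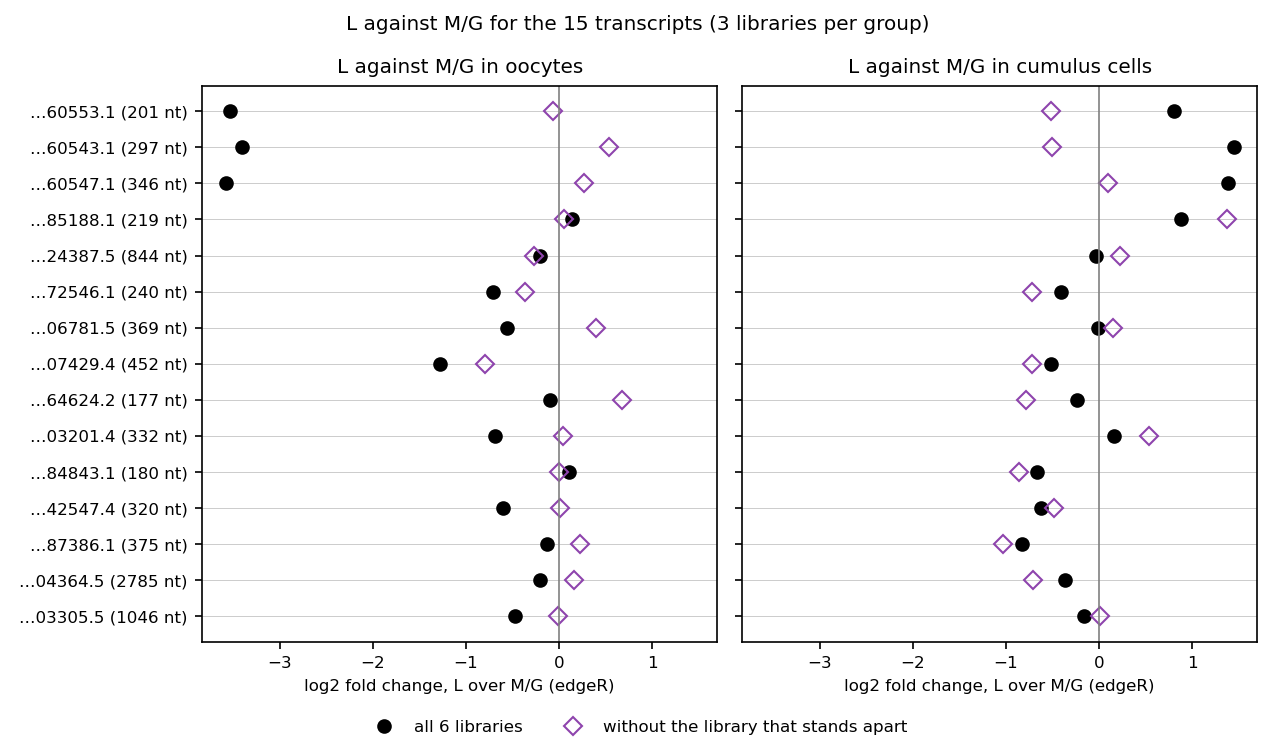
Log2 fold change of L against M/G for each member, in oocytes and in cumulus cells, estimated by edgeR from all 6 libraries of the cell type (filled circles) and again without the library that stood apart, oocyte M/G replicate 1 or cumulus L replicate 3 (open diamonds). In oocytes the 3 transcripts with mitochondrial gene lengths move from between -3.58 and -3.40 to between -0.06 and 0.54 when M/G replicate 1 is left out.

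Whether the L effect differed between cell types was tested over 28107 transcripts with edgeR, and 0% passed an adjusted p under 0.05, with 1411 at an unadjusted p under 0.05. DESeq2 called 1001 (3.56%) in this comparison. No member was called by either. The 3 transcripts with mitochondrial gene lengths had the smallest p among the members, with a log2 difference of -4.32 to -4.96 between oocytes and cumulus cells (edgeR, adjusted p = 0.981). In oocytes their edgeR log2 fold changes were -3.40 to -3.58 and in cumulus cells 0.81 to 1.45. Limma-voom gave -0.60, -0.0029 and -0.34 in oocytes and -1.24, -0.37 and 0.36 in cumulus cells for the transcripts of 201, 297 and 346 nucleotides, so the size, and in cumulus cells the sign of the first pair, depended on the tool. Without cumulus L replicate 3 the cumulus values were -0.52 to 0.09, as the oocyte values were -0.06 to 0.54 without oocyte M/G replicate 1.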

How the data were processed

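RNA-seq of 12 libraries (6 oocyte, 6 cumulus) was used. The authors trimmed the reads, quantified them with kallisto 0.44.0 against the Ensembl bovine cDNA set, and deposited 1 table per library. The deposited estimated counts are not normalized. The deposited TPM values were scaled by the authors' tool to a fixed sum per library after division by effective length, so sequencing depth is not visible in them. Libraries with few exonic reads had been removed by the authors.

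The members, the gene lists planned for them and the tests were chosen with earlier results of these data known. Without gene symbols the lists could not be used. Transcripts are named by identifier where they were among the 3 most abundant members, first or last in CV or in oocyte to cumulus ratio, smallest in p for L against M/G in each direction, nearest to the threshold, or longest or shortest. The transcript of 452 nucleotides, and any other given by length only, was singled out after its values were seen.

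Estimated counts were rounded to whole numbers, and those whose FPKM exceeded 1 in any library compared were tested over the whole table with edgeR 4.0.16 in R 4.3.3 (TMM, quasi-likelihood F test, Benjamini-Hochberg adjustment). Oocyte against cumulus had the condition group as covariate. That fit treated all libraries as independent and did not use the pairing of the 3 cows with both libraries. Cow was a block only in the fit of those 3 cows. DESeq2 1.42.0 and limma 3.58.1 were alternatives. The fits were run on simulated data with large changes and less variation than these libraries. That run checked the code only and does not show what the fits can detect here. Replicates are different cows. Replicate numbers were not used as a pairing.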

Additional observations from a re-analysis of the deposited data

Results flagged for a closer look

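In each cell type the highest or lowest of the 6 libraries was compared with the other 5 by Dixon's test for 34 values, and 8 stood apart from the rest. Chance alone gives about 1 in 20 for independent values, but these are not independent: TPM has a fixed sum in each library, several values come from 1 library, and the selection at 200 TPM removed low values. The number that stood apart is therefore a description only. Oocyte M/G replicate 1 accounted for 5 of the 8. In it the 15 members held 57.5% of TPM against 5.57% to 12.8% in the other oocyte libraries, and the 12 members without mitochondrial gene lengths held 1.06% against 2.64% to 3.47%. In the same library ENSBTAT00000060553.1 had 477816 TPM against 21510.4 to 83669, ENSBTAT00000060543.1 had 45694 against 1703 to 8039.6, and ENSBTAT00000060547.1 had 40769.8 against 1287 to 7711. ENSBTAT00000006781.5 had 1069 TPM in oocyte L replicate 2 against 232 to 495 in the other oocyte libraries. ENSBTAT00000007429.4 had 900.4 TPM in oocyte M/G replicate 2 against 328 to 444. The transcript of 180 nucleotides had 1821 TPM in cumulus M/G replicate 1 against 267 to 770 in the other cumulus libraries, at 31.5 to 355 estimated counts.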

How the results depend on the processing

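The counts of members called between L and M/G were 0 under every alternative run. The number of members was 67 at 100 TPM, 4 at 400 TPM, 25 with the 10 left-out transcripts kept in or with TPM rescaled without them, 32 on annotated length and 15 to 34 with 1 library left out. The mean share in cumulus libraries was 2.34% of estimated counts, 7.15% of TPM without the transcript of 201 nucleotides and 10.5% on annotated length, with 31.5% to 36.9% when 1 library was left out. The oocyte share of 17.0% was 1.13%, 4.85% and 5.18% under the first 3 of these and 8.91% to 19.3% with 1 library left out. The median length was 133 as effective length, 678 and 268.5 for the members at 100 and 400 TPM and 1028 on annotated length. The median CV was 53.6% in oocytes on TMM-normalized CPM and 35.1% to 45.8% with 1 library left out, and in cumulus cells 42.2% for the 12 members on rescaled TPM and 44.8% to 60.8%. Members called between oocyte and cumulus cells were 3 in L libraries only, 0 in M/G libraries only, 0 in the 3 cows with both libraries and 4 to 8 with 1 library left out. The L against M/G fold change of ENSBTAT00000085188.1 in oocytes turned to -0.029 with the size factors of DESeq2 and in DESeq2 itself, and ran from -0.0014 (without oocyte L replicate 3) to 0.31 with 1 library left out. The cause was not tested. The recomputed length, the exclusions by length and the rescaling without 13 transcripts were chosen after seeing the data.

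With the replicate number as a block, 0, 0 and 4 members were called in oocytes, in cumulus cells and between cell types, and 1 transcript was called in cumulus cells. Between cell types the block called 1.99% of all transcripts lower and 4.95% higher in oocytes. In oocytes the L against M/G fold changes of the 3 transcripts with mitochondrial gene lengths were -0.51 to -1.10 with the block. The deviations of same-numbered libraries had correlations of -0.245 to 0.137 in oocytes and -0.328 to -0.0147 in cumulus cells. For libraries of other numbers the mean correlation was 0.0238 in oocytes and 0.0864 in cumulus cells. These values gave no sign of a pairing by number, but they are too few to exclude one. With 3 libraries per group a small difference cannot be told from none, and members of 177 and 180 nucleotides rest on as few as 61.5 and 31.5 estimated counts.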
